A study of Zea mays subsp. mays and Zea mays subsp. parviglumis and Zea luxurians with 126 samples.

Results

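Cleavage of *PHAS* precursors and transcripts by small RNAs was compared in 3 teosintes, the wild relatives of maize, at 1 anther length of 1.5 mm. The comparison held 9 of the 63 libraries of the series, 3 from each teosinte, chosen by variety and anther length alone, and 25058 of its 181472 candidate cleavage sites. TIL11 is *Zea mays* subsp. *parviglumis*, TIL25 is *Z. mays* subsp. *mexicana* and RIL003 is *Z. luxurians*. All plants were untreated and unmodified, were kept in a growth chamber, and each replicate came from different plants. Each taxon was represented by 1 line with its own genome assembly, *PHAS* loci and miRNA names, so a difference between taxa cannot be told apart from a difference between lines or annotations. Anthers of equal length need not be of equal stage: the study's stage scheme places 1.5 mm in meiosis for TIL11 and RIL003 and names a longer anther for TIL25. The tables hold cleavage sites and no expression values, so anther identity was not checked against marker genes.

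Reproductive phasiRNAs are made in anthers from long noncoding *PHAS* precursors. A 22-nt miRNA cuts the precursor, the cleaved RNA is made double-stranded, and Dicer-like enzymes dice it in regular steps from the cut. In grasses miR2118 is the trigger of *21-PHAS* precursors, whose 21-nt phasiRNAs are typically premeiotic, and miR2275 is the trigger of *24-PHAS* precursors, whose 24-nt phasiRNAs are typically meiotic. The 5′ end left by a cut was read by nanoPARE, a method that captures RNA 5′ ends, and each candidate site carried its signal as reads scaled to library size (RPM), an Allen score (a mismatch penalty, lower for a closer match) and an adjusted p-value. A site passed when its adjusted p was below 0.05, and a target was positive when it passed in at least 2 of 3 replicates.

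The sequences of the triggers, and of the most abundant small RNAs of loci whose phasiRNAs share trigger sites, are shown because those results turn on how alike they are. The tables name a phasiRNA by its locus alone, so that the sequence shown is the one matched at a site was not tested. They are written 5′ to 3′ with bases 2 to 8, the seed, in capitals. The mature miRNAs were
miR2275c-3p (TIL11): uUCAGUUUccucuaauaucuca
miR2118b-5p (TIL11): uUCCCGAUgccucccauuccua
miR2118c/miR482 (TIL11 and RIL003): uUCCUAAUgccucccauuccua
and the most abundant small RNAs of 3 *21-PHAS* loci were
TIL25_21PHAS_4747: uUCCUGAUgccuccuauuccua
TIL25_21PHAS_25047: uUUCUGAUgccucccauuccua
TIL11_21PHAS_45236: uUCCUGAUgccucucauuccua
These loci lie on chr2:66600306-66602348 and chr10:113845780-113848065 of the TIL25 version 1 assembly and on chr10:118480021-118482471 of the TIL11 version 1 assembly. Each of the 3 small RNAs was 22 nt long and matched miR2118b-5p at 20 of 22 bases. Counted from the 5′ end of miR2118b-5p, the differences were C5U and C15U for TIL25_21PHAS_4747, C3U and C5U for TIL25_21PHAS_25047, and C5U and C14U for TIL11_21PHAS_45236. The miR2118c/miR482 sequence differed from miR2118b-5p by C5U and G6A. Names such as miR2118 and miR2275 without an arm letter cover most sites in the tables and were not tied to a sequence here.

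Depth, taken from the RPM worth of 1 read, was 5.33 to 7.56 M reads in TIL11, 4.33 to 5.97 M in TIL25 and 7.31 to 8 M in RIL003. Of all candidate sites, 19.2% passed in the miRNA tables (2294 of 11975) and 13.3% in the phasiRNA tables (1746 of 13083). TIL11 had the lowest shares, 13% for miRNAs and 4.28% for phasiRNAs, against 21.9% and 16.2% in TIL25 and 22.6% and 17.9% in RIL003. The passing sites were sorted into 10 classes by small RNA and target, and the number of targets and the summed RPM of each class were compared across varieties by exact permutation tests over the 9 libraries, with 20 p-values adjusted together. The smallest p these tests allow is 0.00357, and between any 2 varieties it is 0.1, so pairs of varieties are described by their ranges and by limma.

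miR2118 cut many *21-PHAS* precursors in TIL25, fewer in RIL003 and almost none in TIL11. The number of *21-PHAS* targets was 95, 89 and 76 in the TIL25 libraries, 30, 52 and 27 in RIL003, and 3, 5 and 5 in TIL11, and the 3 ranges did not overlap (exact permutation test, p = 0.00357, adjusted p = 0.00649). The summed miR2118 signal was 298, 445 and 206 RPM in TIL25, 25, 51.7 and 22.2 RPM in RIL003, and 1.59, 2.69 and 5.24 RPM in TIL11. By limma the log2 difference of TIL25 from TIL11 was 6.48 ± 0.48 (SE, adjusted p = 1.58e-07), that of RIL003 from TIL11 was 3.21 ± 0.48 (adjusted p = 1.57e-04), and that of TIL25 from RIL003 was 3.28 ± 0.48 (adjusted p = 9.77e-05), all on the log2(RPM + 0.5) scale. The TIL25 libraries, which had the most targets, held at most 5.97 M reads. Of the passing miR2118 sites, 67.4% in TIL25, 43.1% in RIL003 and 23.1% in TIL11 were also passing sites of a phasiRNA at the same base, described further on, and which small RNA made those cuts cannot be told apart. In bulk anther RNA, more precursor RNA and more cleavage of each precursor cannot be told apart. The study found the most miR2118 interactions of TIL11 at a shorter anther length, so variety and stage cannot be told apart here either.

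The miR2118 sites were recurrent in TIL25 and sporadic in TIL11. In TIL25, 84 of 109 *21-PHAS* targets were positive and 67 passed in all 3 libraries, each of the 67 at the same base every time. In RIL003, 30 of 62 were positive and 17 passed in all 3, again at the same base. In TIL11, 2 of 10 were positive, TIL11_21PHAS_5168 (0.928, 0.624 and 2.08 RPM) and TIL11_21PHAS_3014, which passed in replicates 1 and 2 only (0.397 and 0.375 RPM). The strongest TIL25 target, TIL25_21PHAS_3516, had 15.1, 22.2 and 6.62 RPM, above any miR2118 value on *21-PHAS* in the other varieties, with an Allen score of 1.5. The next were TIL25_21PHAS_1675 at 9.9 ± 3.85 RPM (SD, n = 3) and TIL25_21PHAS_9417 at 9.82 ± 6.42 RPM. In RIL003 the strongest was RIL003_21PHAS_14210 at 5.47, 1.49 and 0.5 RPM, with an SD of 2.63 beside a mean of 2.49. The median passing site rested on 14 reads in TIL25, 5 in RIL003 and 4 in TIL11, so the TIL11 sites rest on few reads. The share of candidate miR2118 sites on *21-PHAS* that passed was 27.7% in TIL11 (13 of 47), 61.9% in TIL25 (267 of 431) and 55.3% in RIL003 (109 of 197), against 19.2% over all miRNA sites.

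**Figure D1:**
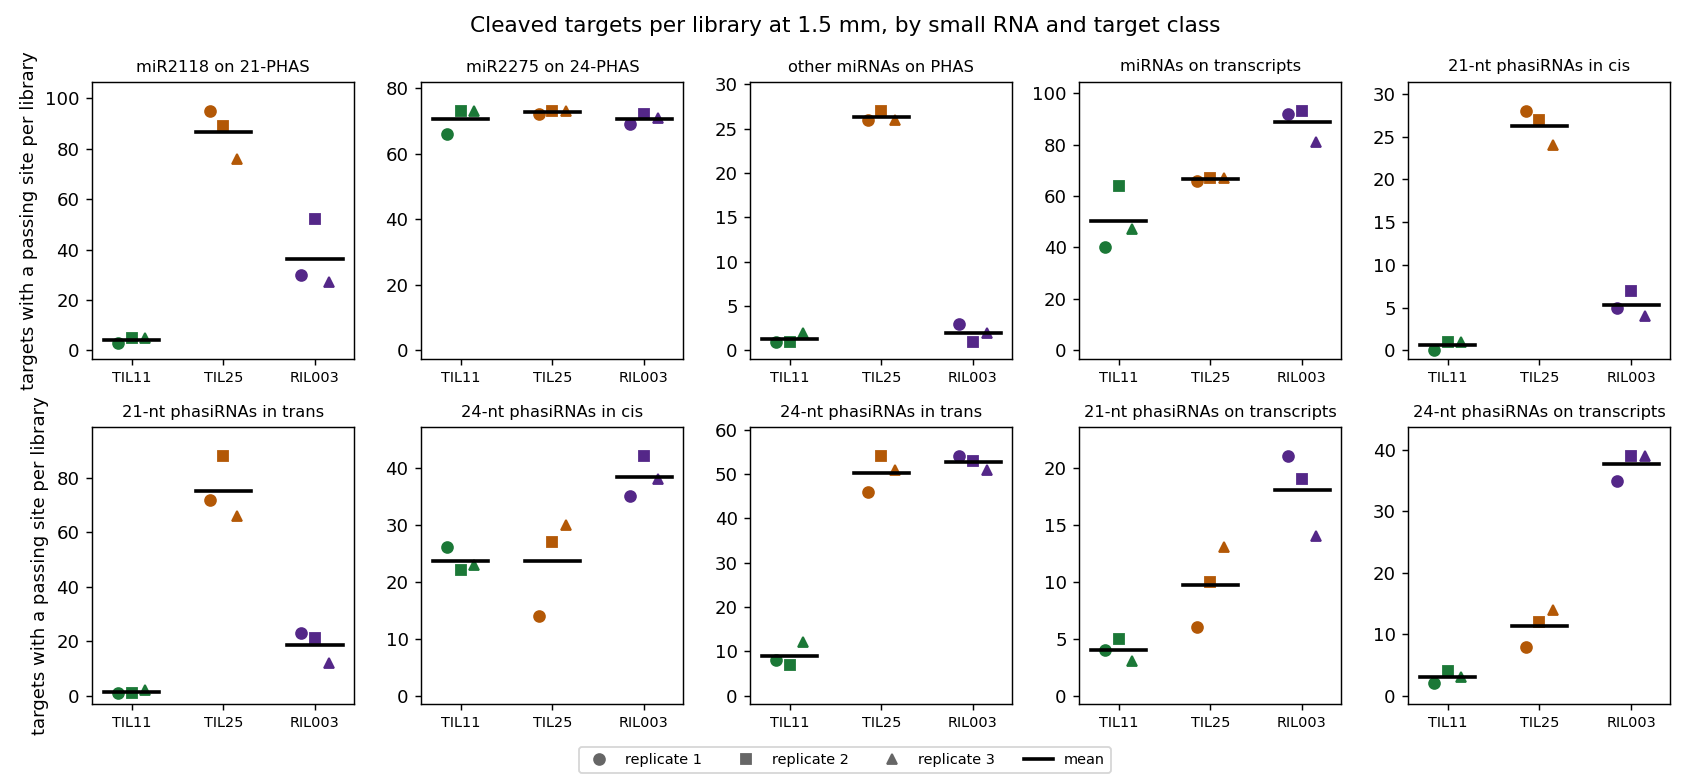
Targets with a passing site (y axis, number per library) in 10 classes of small RNA and target, for TIL11, TIL25 and RIL003 at 1.5 mm; points are libraries, marked by replicate, and lines are means of 3. miR2118 targets lie at 3 to 5 in TIL11, 27 to 52 in RIL003 and 76 to 95 in TIL25, while miR2275 targets lie at 66 to 73 in all 9 libraries.

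miR482, a relative of miR2118, was a named cutter of *21-PHAS* in TIL25 alone. It had 23, 24 and 22 targets with 90.3, 110 and 61.4 RPM, and all of its passing sites were on *21-PHAS*. Of its 27 targets, 1 was also a miR2118 target, which is 3.7% of the miR482 targets and 0.917% of the 109 miR2118 targets. Each position is credited to 1 small RNA per table, so a base that both could cut is listed under only 1 of them. The small overlap therefore does not show that they cut separate loci. In TIL11 and RIL003 the name miR482 occurs only joined to miR2118c, and those sites were counted as miR2118, 14 *21-PHAS* targets in RIL003 among them. Cleavage and annotation therefore cannot be told apart for miR482. With miR482 counted as miR2118, TIL25 had 118, 112 and 98 *21-PHAS* targets, and the other varieties were unchanged. Its strongest target, TIL25_21PHAS_18482, had 16.4, 10.4 and 5.48 RPM, and TIL25_21PHAS_4769 had 8.46, 13.6 and 3.21 RPM. Together with a few other sites, miR482 made the class of other miRNAs on *PHAS* loci larger in TIL25, with 26, 27 and 26 targets against 1, 1 and 2 in TIL11 and 3, 1 and 2 in RIL003 (exact permutation test, p = 0.025, adjusted p = 0.0333). With miR482 moved to miR2118, that difference did not pass (adjusted p = 0.0924).

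miR2275 cut nearly the same number of *24-PHAS* precursors in the 3 teosintes, and these sites were the strongest of the miRNA sites on *PHAS* loci. Targets numbered 66, 73 and 73 in TIL11, 72, 73 and 73 in TIL25, and 69, 72 and 71 in RIL003, and the ranges overlapped (exact permutation test, p = 0.657, adjusted p = 0.657). Over the 3 libraries together, TIL11 had 75 targets of which 66 passed every time, TIL25 had 74 of which 71 did, and RIL003 had 74 of which 68 did, all of these at the same base in the 3 replicates. Of the passing miR2275 sites, 50.4% in TIL25, 37.3% in RIL003 and none of 223 in TIL11 were also phasiRNA sites. The summed signal was 5783.2, 10255.5 and 9006.9 RPM in TIL11, 3708.6, 35002.1 and 17439.3 RPM in TIL25, and 12307.1, 16693.5 and 14246.5 RPM in RIL003. RIL003 lay above TIL11 in every library, and TIL25, with the widest spread, overlapped both (exact permutation test across varieties, p = 0.586, adjusted p = 0.617). By limma the log2 difference of TIL25 from TIL11 was 0.69 with a 95% interval of -0.75 to 2.14, that of RIL003 from TIL11 was 0.82 (-0.63 to 2.26), and that of TIL25 from RIL003 was -0.12 (-1.57 to 1.32).

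TIL25 replicate 1 stood apart in this class. Its *24-PHAS* sites were lower than those of replicate 2 in 70 of the 71 targets shared by all 3 libraries, with a median ratio of replicate 2 to replicate 1 of 11.3 (quartiles 6.43 and 14.6), and lower than those of replicate 3 in 69 of 71, with a median ratio of 5.41. The corresponding medians in TIL11 were 1.77 and 1.63 and in RIL003 1.41 and 1.04. The order of the targets was kept, with Spearman's rho across these 71 targets of 0.87 and 0.9 between replicate 1 and the other replicates, as a description over loci of the same libraries. The same library was not low for miR2118, where replicates 1, 2 and 3 had 298, 445 and 206 RPM, nor for depth, which was 5.97 M reads against 4.33 and 5.29 M. Without TIL25 replicate 1, the summed miR2275 signal differed across varieties (adjusted p = 0.00714). The most strongly cut loci were TIL11_24PHAS_3386 (chr1:178031394-178032387 of the TIL11 version 1 assembly) at 416, 759 and 682 RPM and TIL25_24PHAS_1832 at 196, 2219.9 and 1169.1 RPM. In RIL003, RIL003_24PHAS_14200 and RIL003_24PHAS_14201 were both listed at 873, 1371.2 and 1369.5 RPM, so the signals of these loci cannot be told apart. Signal was spread over many loci, with 41.7% of the RPM of recurrent targets in the top 10 in TIL11, 41.1% in TIL25 and 42.9% in RIL003. The most abundant small RNA of the leading TIL11 locus was
TIL11_24PHAS_3386: aAGAUAUGauucuucucgucgaac

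**Figure D2:**
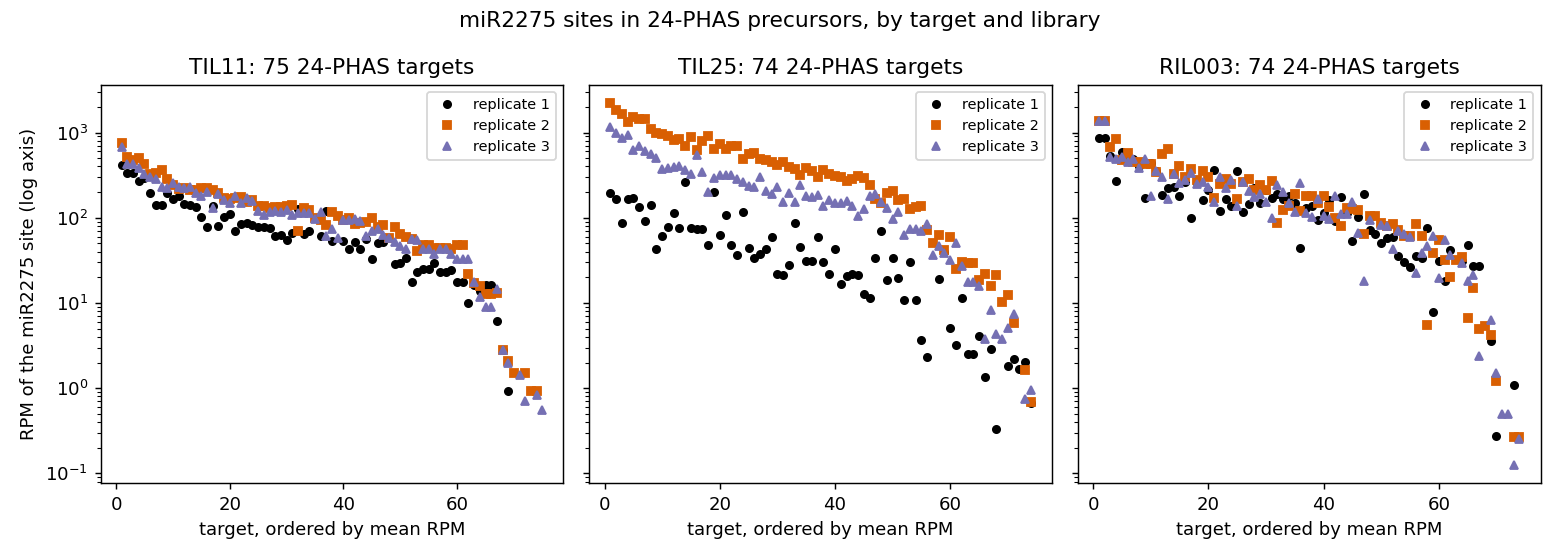
RPM of the miR2275 site (log y axis) for each *24-PHAS* target, ordered along the x axis by mean RPM, with 1 symbol per replicate and 1 panel per variety. The replicates of TIL11 and RIL003 lie together, and TIL25 replicate 1 lies below replicate 2 by a median of 11.3-fold along nearly the whole order.

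The match between trigger and the annotated length class of the target had strong exceptions, described here after their values were seen. miR2275 cut TIL11_21PHAS_3428, a locus annotated as *21-PHAS* (chr1:180111031-180112515 of the TIL11 version 1 assembly), at 196, 330 and 298 RPM with an Allen score of 2.5. Only 5 of the 75 *24-PHAS* targets of miR2275 in TIL11 had a higher mean than this site. The cut was at base 2259 of a target sequence that reaches beyond the annotated locus. That number is larger than the length of the locus, so the cut may lie in flanking sequence, which was not tested. In RIL003, miR2275 cut RIL003_21PHAS_2370 at 53.6, 128 and 155 RPM, also with an Allen score of 2.5, and 44 of 74 *24-PHAS* targets had a higher mean. Whether that cut, at base 3062, lies within the annotated locus was not tested. In TIL25 the miR2275 sites on *21-PHAS* were of 1 read each, at TIL25_21PHAS_9353 in replicates 1 and 3. TIL25 was thus at or below 1 read, too low for a fold, and the log2 difference of RIL003 from TIL11 was -1.39 ± 0.43 (SE, limma, adjusted p = 0.027). The most abundant small RNA of the TIL11 locus has 21 nt:
TIL11_21PHAS_3428: cAUAGGACgaacgauacacuc
In the other direction, miR2118 cut TIL25_24PHAS_9293 in all 3 TIL25 libraries at 6.34, 4.39 and 2.65 RPM, and no *24-PHAS* locus in TIL11 or RIL003. Because of the strong TIL11 and RIL003 loci, the summed RPM of other miRNAs on *PHAS* was higher in TIL11 (196, 330 and 298) than in TIL25 (96.9, 115 and 64.7), although TIL25 had more targets (exact permutation test, p = 0.0393, adjusted p = 0.0491). That call is near its threshold and was lost with 8 of the 9 libraries left out in turn. The difference was larger with an Allen score of at most 4 (log2 3.19, adjusted p = 0.00714) and with miR482 counted as miR2118 (log2 5.66, adjusted p = 0.00595), against 1.58.

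**Figure D3:**
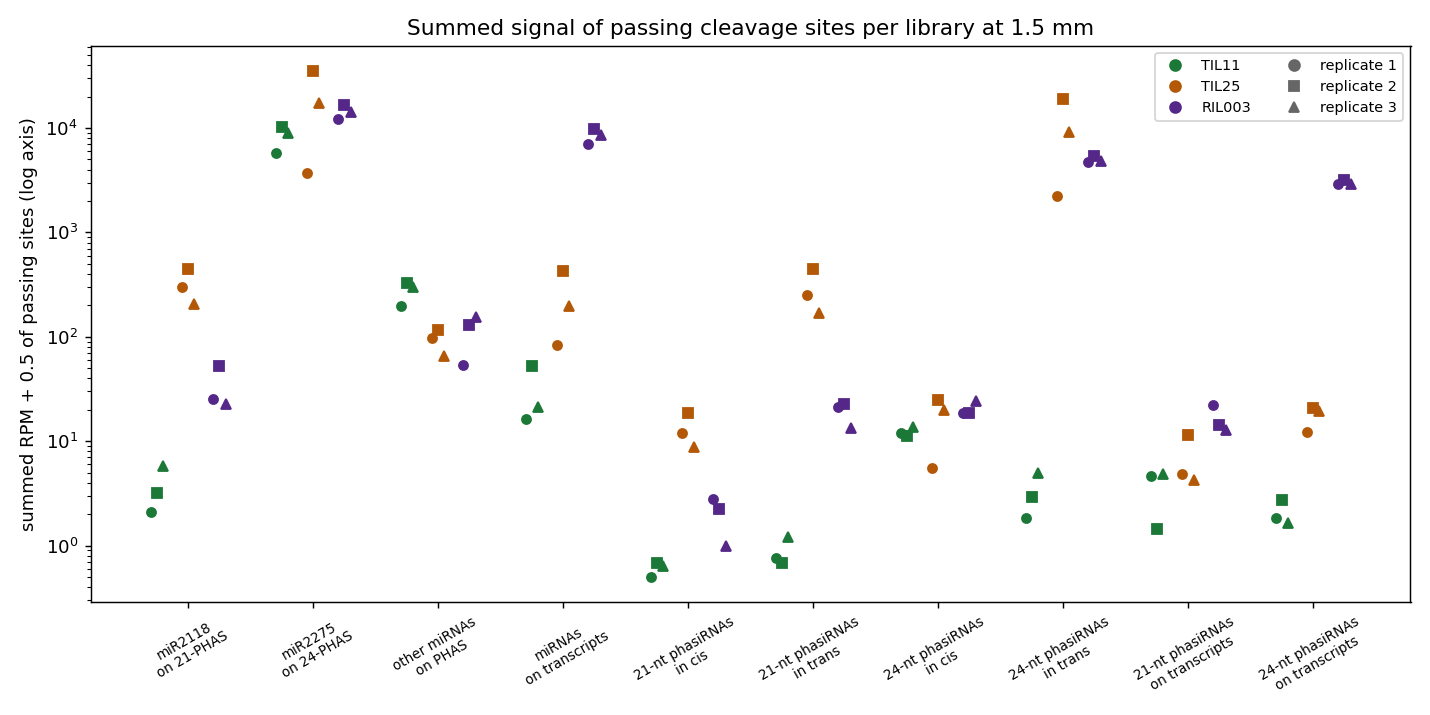
Summed RPM of passing sites plus 0.5 (log y axis) for the 10 classes along the x axis, with colours for varieties and symbols for replicates. miR2275 on *24-PHAS* is the highest miRNA class in all 9 libraries, and RIL003 stands far above the other varieties for miRNAs and 24-nt phasiRNAs on transcripts.

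On transcripts, RIL003 had the most miRNA targets and far more signal. After isoforms were joined to genes, targets numbered 92, 93 and 81 in RIL003, 66, 67 and 67 in TIL25, and 40, 64 and 47 in TIL11 (exact permutation test, p = 0.00357, adjusted p = 0.00649). Summed RPM was 7102.8, 9807 and 8634.5 in RIL003, 82.5, 430 and 196 in TIL25, and 15.7, 52.3 and 20.7 in TIL11 (same p). Most of the RIL003 signal had a counterpart on *PHAS* loci: 320 of its 510 passing transcript sites (62.7%), with 96.7% of their RPM, had the same small RNA and the same RPM above 1 read as a *PHAS* site of the same library. Isoforms were kept apart in these site counts, and the 510 sites lay on 135 targets. Copies were 4.63% of the sites and 10.4% of the RPM in TIL11, and 4.87% of the sites and 67.1% of the RPM in TIL25. RIL003 transcripts were assembled from the study's own anther reads, and the transcripts of the other varieties came from public annotation. With those sites left out, an alternative chosen after seeing the data, RIL003 had the lowest mean, with 44, 38 and 37 targets against 61, 62 and 62 in TIL25 and 39, 59 and 44 in TIL11 (exact permutation test, p = 0.0214, adjusted p = 0.0385), so the order of RIL003 and TIL11 was turned, with overlapping ranges. Summed RPM without copies was still highest in RIL003, at 203, 245 and 439 against 45.7, 58.2 and 47.5 in TIL25 and 14.8, 45.4 and 17.2 in TIL11. The log2 difference of RIL003 from TIL11 was then 3.6 in place of 8.33 (exact permutation test, adjusted p = 0.0102). Most of what remained in RIL003 was miR2275 signal too, as that family held 7071.3, 9776 and 8612.4 RPM of the totals with copies. With the copies kept, the difference in targets was lost without RIL003 replicate 2 (adjusted p = 0.0561). The strongest RIL003 transcript, RIL003_20480, carried the same 873, 1371.2 and 1369.5 RPM as RIL003_24PHAS_14200.

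By family, miR2275 held most of the RIL003 signal, 7071.3, 9776 and 8612.4 RPM, with 40 transcript targets in each RIL003 library against 4, 12 and 6 in TIL11 and 10, 11 and 11 in TIL25. In TIL25, Zx00003aa013704 alone held 30.3, 363 and 138 RPM of the miR2275 signal, and its site also copied a *PHAS* site. miR2118 cut 13, 21 and 12 transcripts in RIL003, 0 in every TIL25 library, and 0, 1 and 0 in TIL11. Copies of *PHAS* sites are included in these family counts. miR1130 passed on 9 and 5 transcripts in TIL25 replicates 1 and 2 and on none elsewhere.

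The conserved families were much weaker than the triggers and were tested together with all others. Of 30 combinations of family and target class, limma called 16 different across varieties (53.3%). Pairs were called by limma contrasts at an adjusted p below 0.05. TIL25 was called above TIL11 in 40% of the combinations and below it in 3.33%. RIL003 was called above TIL11 in 26.7% and below it in 3.33%, and TIL25 above RIL003 in 33.3% and below it in 13.3%. On transcripts alone, 6 of 17 features were called, counting 16 families and the miRNAs without a family name (35.3%), which is the background for the lists that follow. Of 3 reproductive trigger families, 2 were tested on transcripts, miR2118 and miR2275, and both were called. Copies of *PHAS* sites were kept in the family tests, which were not run without them. Of 10 families that target transcription factors, 8 were tested and 1 was called. Of 4 auxin families, 2 were tested and both were called. Of 7 nutrient and copper families, 2 were tested and none was called, and neither of the 2 families that target the silencing machinery, miR162 and miR168, passed in enough libraries to be tested. miR394, a list of its own, was tested and not called. These lists were chosen with earlier results of these data known, and each count is small.

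miR171, which targets GRAS transcription factors of the HAIRY MERISTEM group, had the clearest difference of the conserved families. Its signal was 1.84, 6 and 5.3 RPM in TIL25, 0.925, 1.31 and 0.849 RPM in TIL11, and 0.551, 0.85 and 0.266 RPM in RIL003, with TIL25 above both others in every library (limma, adjusted p = 0.0118 against TIL11 and 0.00129 against RIL003). miR160, which targets repressor-type auxin response factors (ARFs), had 4.86, 5.54 and 4.16 RPM in TIL25, 3.04, 4.87 and 1.7 RPM in TIL11 and 1.91, 1.22 and 1 RPM in RIL003. TIL25 was 1.53 ± 0.39 above RIL003 on the log2 scale (limma, adjusted p = 0.00592) and 0.62 above TIL11 with an interval of -0.24 to 1.47. The miR160 call across varieties (adjusted p = 0.0154) was lost without RIL003 replicate 2 or 3. miR167, which targets activator-type ARFs, had 4.58, 6.41 and 4.66 RPM in TIL25, 0.687, 4.87 and 0.888 RPM in TIL11, and 0.82, 0.541 and 1.36 RPM in RIL003. Its TIL11 range reached into that of TIL25 through replicate 2, and the call across varieties (adjusted p = 0.0154) was lost without TIL25 replicate 2 or 3 or RIL003 replicate 2.

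**Figure D4:**
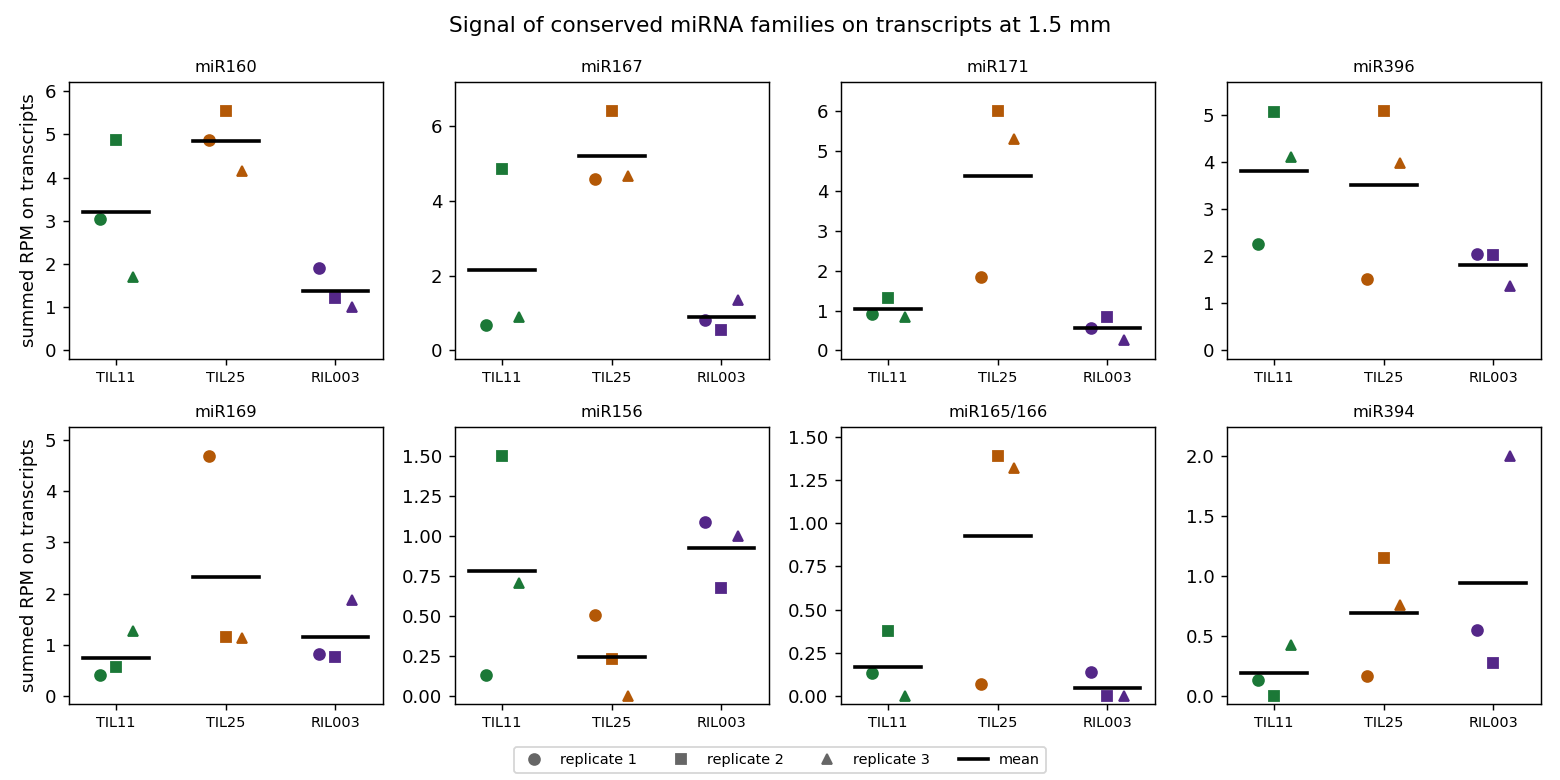
Summed RPM on transcripts (y axis) of 8 conserved miRNA families, with 1 point per library, 1 colour per variety and lines for the means of 3. miR171 in TIL25 (1.84 to 6 RPM) lies above every TIL11 and RIL003 library, while the miR396 ranges of TIL11 and TIL25 overlap.

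miR396, which targets growth-regulating factors (GRFs), cut transcripts in all 9 libraries at 2.25, 5.06 and 4.11 RPM in TIL11, 1.51, 5.08 and 3.97 RPM in TIL25 and 2.05, 2.03 and 1.37 RPM in RIL003 (limma, adjusted p = 0.256). miR169, known to target NF-YA subunits, passed in all 9 libraries with 1 to 3 targets each and did not pass the test across varieties (adjusted p = 0.256). miR156, which targets SBP-box factors, had 0.132 to 1.5 RPM in TIL11, 0 to 0.502 RPM in TIL25 and 0.676 to 1.09 RPM in RIL003 (adjusted p = 0.208). miR394, known for an F-box target, was at 0 to 2 RPM throughout (adjusted p = 0.271). miR528 passed on 1 transcript in each TIL11 library at 0.187 to 0.425 RPM and in 1 library of each other variety. miRNAs without a family name cut 14, 18 and 15 transcripts in TIL11, 18, 17 and 19 in TIL25 and 11, 12 and 10 in RIL003 (adjusted p = 0.41).

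Gene by gene, TIL11 and TIL25 could be paired through 16 pangene sets of the miR160, miR171, miR394 and miR396 families. These sets were chosen by the study as detected targets on samples that include these, so their detection is not independent evidence. TIL25 was sampled at fewer anther lengths than TIL11, so its genes had fewer other libraries through which to enter the sets. That favours TIL25 in a count at 1.5 mm, and the counts below do not compare the varieties. In TIL25 all 16 genes were positive at 1.5 mm and in TIL11 10 were, and these 10 were also positive in TIL25. The ARF pair Zv00002aa020413 and Zx00003aa018397 was the strongest of them, at 2.25, 2.44 and 0.708 RPM in TIL11 and 3.35, 1.99 and 2.27 RPM in TIL25. The GRAS pair Zv00002aa006820 and Zx00003aa006174 had 0.652, 0.187 and 0.283 RPM in TIL11 and 0.965, 1.93 and 2.31 RPM in TIL25. The GRF pair Zv00002aa039461 and Zx00003aa035563 had overlapping ranges, 1.06, 0.75 and 0.283 RPM in TIL11 and 0.167, 1.55 and 1.46 RPM in TIL25. The miR160 gene Zv00002aa024954 passed in no TIL11 library, while its TIL25 partner Zx00003aa022501 passed in replicates 1 and 2 at 0.502 and 0.923 RPM. In TIL11 replicate 1 a site of 0.132 RPM is 1 read, so most of these values rest on a few reads, and a gene without a passing site is not shown to be uncut.

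phasiRNAs themselves can direct cleavage, either of the precursor they came from (*cis*) or of another *PHAS* precursor (*trans*). 21-nt phasiRNAs cut in *cis* at 28, 27 and 24 loci in TIL25, 5, 7 and 4 in RIL003, and 0, 1 and 1 in TIL11 (exact permutation test, p = 0.00357, adjusted p = 0.00649). These sites were weak: the median passing site had 0.335 RPM in TIL25, or 2 reads, and 45.6% rested on 1 read or less. The strongest, TIL25_21PHAS_25020, had 0.502, 2.31 and 0.567 RPM. All had an Allen score of 0, as a phasiRNA matches its own locus, and 18 of 53 TIL25 loci were positive against 3 of 10 in RIL003 and 1 of 1 in TIL11.

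24-nt phasiRNAs cut in *cis* at 26, 22 and 23 loci in TIL11, 14, 27 and 30 in TIL25 and 35, 42 and 38 in RIL003, and the difference did not pass (exact permutation test, p = 0.0714, adjusted p = 0.084). TIL25 replicate 1 was the lowest of its variety. Without it the varieties differed in targets (adjusted p = 0.011) and in RPM (adjusted p = 0.0238), and without TIL25 replicate 3 they differed in targets (adjusted p = 0.0312). Summed signal was 10.7 to 13.2 RPM in TIL11, 4.98 to 24.1 RPM in TIL25 and 18.1 to 24 RPM in RIL003, with RIL003 above TIL11 in every library (exact permutation test across varieties, p = 0.493, adjusted p = 0.548). The strongest loci were TIL11_24PHAS_44404 at 2.43 ± 0.743 RPM, TIL25_24PHAS_6645 at 4.12 ± 2.01 RPM and RIL003_24PHAS_14191 at 3.26 ± 1.65 RPM (SD, n = 3). Of the classes of phasiRNA cleavage, this was the one TIL11 showed most: it made up 63.4, 55 and 52.3% of the phasiRNA targets in the TIL11 libraries, against 8.05 to 15.2% in TIL25 and 20.2 to 24.1% in RIL003.

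In *trans*, 21-nt phasiRNAs had 72, 88 and 66 targets in TIL25, 23, 21 and 12 in RIL003 and 1, 1 and 2 in TIL11, and their summed RPM was 250, 445 and 170, then 20.8, 22.4 and 13, then 0.264, 0.187 and 0.708 (exact permutation test, p = 0.00357, adjusted p = 0.00649 for both). Nearly all of these sites were the base at which a miRNA site also passed in the same library: 198 of 232 in TIL25 (85.3%), 47 of 56 in RIL003 (83.9%) and 3 of 4 in TIL11. The miRNA was miR2118 or, in TIL25, miR482. A few source loci held most targets. TIL25_21PHAS_4747 had 53 positive targets and 91.8% of its sites on a miRNA site, TIL25_21PHAS_25047 had 12 and 41 of 41, and RIL003_21PHAS_32455 was the source of all 56 RIL003 sites, with 17 positive targets. TIL11_21PHAS_45236 was the source of all 4 TIL11 sites and had no positive target. The most abundant small RNAs of the TIL25 and TIL11 source loci are the sequences shown above that differ from miR2118b-5p at 2 bases. They are 22 nt long, so the name 21-nt phasiRNA follows the annotated class of the source locus and was not checked by length. At the shared positions the Allen scores were equal for the phasiRNA and the miRNA at 154 of 198 TIL25 sites and lower for the miRNA at the other 44. In RIL003 they were equal at 10 of 47 sites, lower for the phasiRNA at 17 and lower for the miRNA at 20. Which of them made the cut cannot be told apart from the 5′ end. Without shared positions, the log2 difference of TIL25 from TIL11 fell to 3.2 from 5.05 for targets and to 4.41 from 8.28 for RPM. Both still passed (exact permutation tests, adjusted p = 0.0286 and 0.0102). This step removed positions and not source loci. The remaining TIL11 and RIL003 sites came from the same source loci as the shared ones, and TIL25_21PHAS_4747 kept its unshared sites. Whether the varieties differ in *trans* cleavage apart from small RNAs like miR2118 was therefore not tested.

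24-nt phasiRNAs in *trans* separated TIL11 from both other teosintes. They had 8, 7 and 12 targets in TIL11, 46, 54 and 51 in TIL25 and 54, 53 and 51 in RIL003, and TIL11 overlapped neither (exact permutation test, p = 0.025, adjusted p = 0.0333). Summed RPM was 1.32, 2.4 and 4.45 in TIL11, 2238.6, 18851 and 9246.1 in TIL25 and 4770.4, 5355.3 and 4784.4 in RIL003 (same p). Here the coinciding miRNA was miR2275, at 115 of 206 TIL25 sites (55.8%), 82 of 240 RIL003 sites (34.2%) and none of 41 TIL11 sites. Those shared sites carried the signal, with a median of 150 RPM in TIL25 and 137 RPM in RIL003, whereas the other sites had a median of 0.28 and 0.226 RPM and none exceeded 4.75 RPM. The sources of the shared sites were TIL25_24PHAS_24551 and TIL25_24PHAS_9879, with 19 positive targets each, and RIL003_24PHAS_13865, with 24. All their sites were miR2275 sites. Without the shared positions the difference in RPM no longer passed (log2 1.67, exact permutation test, adjusted p = 0.0619), although that in number of targets did. Replicate 1 of TIL25 was again the lowest of its variety, with 2238.6 RPM.

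All of the TIL11 *trans* sites lay away from miRNA sites and were weak, as were the unshared sites of the other varieties. TIL25_24PHAS_9480 had 6 positive targets of this kind, and RIL003_24PHAS_14190 and RIL003_24PHAS_14191 had 8 and 6. In TIL11 the leading sources were TIL11_24PHAS_17336, with 5 positive targets, and TIL11_24PHAS_17332, with 3, which lie near each other at chr4:7996444-7996517 and chr4:7976278-7977396 of the TIL11 version 1 assembly. Their most abundant small RNAs are unlike:
TIL11_24PHAS_17336: uACUCGGCggcaaugacauuaaga
TIL11_24PHAS_17332: gACAUAAUaggcuauacauucucu
Their strongest targets were neighbouring loci, TIL11_24PHAS_17339 at 0.132, 0.375 and 1.25 RPM and TIL11_24PHAS_17337 at 0.0701, 0.767 and 0.517 RPM, with an Allen score of 0. In replicate 1, values below 0.132 RPM are fractions of a read. Of the 41 sites, 48.8% rested on 1 read or less.

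**Figure D5:**
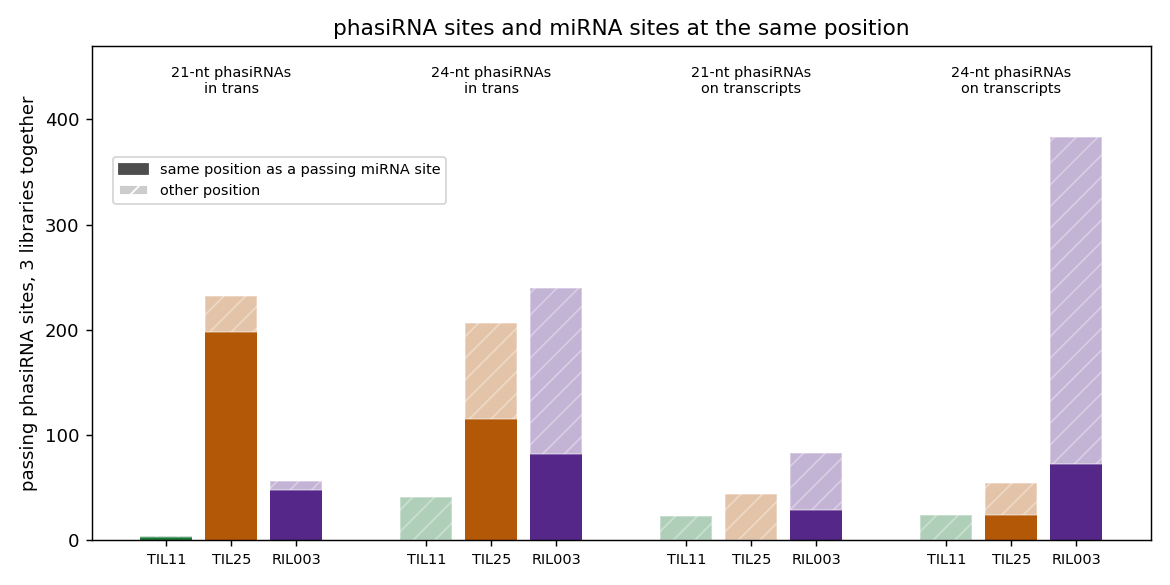
Passing phasiRNA sites of 3 libraries together (y axis, number, isoforms counted apart) for 4 classes and 3 varieties. Solid bars are sites at the same base as a passing miRNA site and hatched bars are other sites. In TIL25, 198 of 232 sites of 21-nt phasiRNAs in *trans* are shared, and in TIL11 none of 41 sites of 24-nt phasiRNAs is.

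phasiRNA cleavage of transcripts was rare in TIL11 and most frequent in RIL003. 21-nt phasiRNAs had 4, 5 and 3 transcript targets in TIL11, 6, 10 and 13 in TIL25 and 21, 19 and 14 in RIL003, and 24-nt phasiRNAs had 2, 4 and 3, then 8, 12 and 14, then 35, 39 and 39 (exact permutation tests, p = 0.00357, adjusted p = 0.00649 for both). Few 21-nt sites passed, 0.657% of the candidates in TIL11, 1.42% in TIL25 and 2.27% in RIL003, against 13.3% over all phasiRNA sites. Few recurred: 2 of 10 targets were positive in TIL11, 3 of 24 in TIL25 and 11 of 37 in RIL003. The strongest TIL11 target, Zv00002aa003348, was cut by a phasiRNA of TIL11_21PHAS_22320 at 3.57 and 3.82 RPM in replicates 1 and 3 and did not pass in replicate 2. In TIL25, Zx00003aa001224 had 1.84, 0.693 and 0.189 RPM.

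Of the 383 RIL003 sites of 24-nt phasiRNAs on transcripts, 67.9% copied a *PHAS* site of the same library, and these held 99.9% of the 13585.9 RPM. Isoforms were kept apart in these values, and the 383 sites lay on 48 targets, so the same cut may count more than once. The leading one, RIL003_33164 at 585, 478 and 521 RPM, had the values of RIL003_24PHAS_27036 in each library. Without such sites the 24-nt class held 13, 17 and 16 targets in RIL003, 4, 7 and 9 in TIL25 and 0, 4 and 2 in TIL11. Its RPM was then highest in TIL25, at 8.38, 11.2 and 9.13 against 2.32, 3.62 and 2.18 in RIL003, so the RPM order of these varieties turned. The log2 difference of RIL003 from TIL11 fell to 1.54 from 10.5. For 21-nt phasiRNAs, RIL003 then had 9, 8 and 10 targets against 6, 10 and 13 in TIL25, and the difference across varieties no longer passed (adjusted p = 0.0524). Passing sites of 24-nt phasiRNAs on transcripts fell on miR2275 sites at 24 of 54 in TIL25 (44.4%) and 72 of 383 in RIL003 (18.8%). In TIL25 the other sites reached at most 0.923 RPM. Zx00003aa029127 (1.67, 5.08 and 4.16 RPM) and Zx00003aa003736 (3.86, 2.44 and 3.12 RPM) were shared sites and not copies. RIL003_33164 was a shared site too. For 21-nt phasiRNAs, 28 of 83 RIL003 sites were also miR2118 sites. Which small RNA made these cuts cannot be told apart.

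As shares of the miRNA targets in a library, miR2275 on *24-PHAS* made up 56.2% ± 4.62 in TIL11, 28.8% ± 1.21 in TIL25 and 35.9% ± 3.12 in RIL003 (SD, n = 3), although the number of its targets was alike. miR2118 on *21-PHAS* made up 3.39% ± 0.612, 34.3% ± 2.67 and 18.1% ± 5.01. By RPM, miR2275 on *24-PHAS* held 96.5% ± 0.0728 of the miRNA signal in TIL11, 94.4% ± 5.04 in TIL25 and 62.5% ± 0.685 in RIL003, where transcripts held 36.9% ± 0.512, mostly as copies of *PHAS* sites. The shares in a library sum to a whole and were not tested.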

How the data were processed

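Anthers of 1.5 mm were sampled from TIL11, TIL25 and RIL003, 3 replicates each. The authors ran the nanoPARE pipeline on every sample without pooling. The deposited RPM of a site is the number of reads starting there, scaled to the library. The Allen score was deposited as the mismatch penalty, and the adjusted p-value of each site is the authors' EndCut value. The deposited fold change is a ratio to the background of the same transcript and was not used. The pipeline's version is not given in the sources used here. The authors mapped TIL11 and TIL25 with version 1 assemblies, and *PHAS* targets reach beyond the annotated locus.

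For each library and class, distinct targets (isoforms joined to genes) and the summed RPM (the highest site per target) were compared as log2(targets + 1) and log2(RPM + 0.5). Counts and shares of sites kept isoforms apart. The tests across varieties were exact permutation tests over 1680 assignments, with 20 p-values adjusted by Benjamini-Hochberg. They took the upper tail of a one-way F statistic, so any difference between varieties counts. Families with a passing site in at least 2 libraries were tested with limma 3.58.1 (R 4.3.3) on log2(RPM + 0.5), adjusted over 30 features. Each table lists a target position once, so a position is credited to 1 small RNA per table. RPM is not a count and only 77.4 to 87.3% of values were whole reads (within 0.01 of a read), so no count model was used. limma was tested on simulated data. Named targets were the 3 with the highest mean RPM per class and variety among those passing in all 3 libraries, or at least 2 where fewer than 3 did. Families called or passing everywhere, leading phasiRNA sources and shared pangene sets were named too. The members and lists were chosen with earlier results of these data known. Sequences, locus positions and pangene sets came from the study's supplementary tables, in which not every locus named here was found.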

Additional observations from a re-analysis of the deposited data

How the results depend on the processing

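For the 20 class results, 306 of 358 alternatives kept the direction and the side of the threshold. Values are log2 differences between the highest and the lowest variety unless stated, and the causes were not tested. At a site threshold of 0.01, miR2275 targets turned to -0.121 and 21-nt phasiRNA targets on transcripts fell short at 1.43. The latter class also fell short with an Allen score of at most 4 (targets 1.49, RPM 1.52), with distinct cut positions or pairs (both 1.76), with 1 read of the shallowest library as a minimum (RPM 2.84), without sites shared with a miRNA (RPM 1.33), with all listed sites (RPM 0.0146) and, added after seeing the data, without copies of *PHAS* sites (targets 1.01, RPM 0.991). Without copies, miRNA targets on transcripts turned to -0.232. Other miRNAs on *PHAS* fell short with the 1-read minimum (targets 3.66, RPM 1.58), with miR482 as miR2118 (targets 1.02) and with all listed sites (RPM 1.41). 24-nt phasiRNAs in *trans* fell short without shared sites (RPM 1.67), and 21-nt *trans* kept its call with smaller values (targets 3.2, RPM 4.41). Without logs, 24-nt *cis* targets passed (a difference of 14.7 targets). Positive targets, counted once per class and variety, rose from 874 to 1426 when 1 of 3 replicates sufficed.

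Leaving out 1 library in turn, miR2275 targets ran from -0.00654 (reversed without TIL11 replicate 1) to 0.0651 and miR2275 RPM from 0.574 to 0.987. Other miRNAs on *PHAS* ran from 1.34 to 1.8 (RPM), miRNA targets on transcripts from 0.68 to 1.01, 24-nt *cis* targets from 0.413 to 0.937, 24-nt *cis* RPM from 0.601 to 0.812, and 21-nt RPM on transcripts from 1.76 to 2.64, the last lost without TIL11 replicate 2 or any 1 of the RIL003 replicates. Family calls ran from 12 to 19 (16 with all libraries).

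With the replicate number as a block, the smallest p the design allows is 0.0278. It was reached by 11 of 20 results, which gave 0.0505 after adjustment, so no class result passed. The block alters only the permutations, so the log2 differences equal those without it by construction. They were 4.06 (targets) and 6.48 (RPM) for miR2118, 3.58 and 1.58 for other miRNAs on *PHAS*, and 0.829 and 8.33 for miRNAs on transcripts. For phasiRNAs they were 4.1 and 4.38 for 21-nt *cis*, 5.05 and 8.28 for 21-nt *trans*, and 2.46 and 11.3 for 24-nt *trans*. On transcripts they were 1.93 and 2.33 for 21-nt and 3.3 and 10.5 for 24-nt phasiRNAs. Under limma, 15 of 16 family calls held with the block. Same-numbered libraries had correlated deviations of -0.16 to 0.25, with 8 of 9 above 0 and 5 above 0.1, against -0.27 to 0.13 for differently numbered ones. Not every pair was above 0.1, so pairing by number was not assumed.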
